A study of Mus musculus with 6 samples.

Results

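The genes described here were 32 genes of the tricarboxylic acid (TCA) cycle, of pyruvate entry into mitochondria and of the pyruvate dehydrogenase (PDH) complex and its control, taken by name from the 31053 genes of the count table. They were followed in cells sorted as quiescent muscle stem cells (qMuSCs), in which markers of other cell types were read too. The aim was to find which steps of the pathway differed after loss of the type 2 deiodinase (D2, gene Dio2). This enzyme makes active thyroid hormone inside the cell. Bulk RNA-seq had been done on skeletal muscle stem cells of 6 mice, 1 library per mouse, sorted from limb muscle by GFP driven by Pax7. The 3 WT mice (c124, c129 and c130) carried Pax7nGFP/+, Pax7+/+ and Dio2Fl/Fl, and the 3 cD2KO mice (fl125, fl126 and fl128) carried Pax7nGFP/+, Pax7-CreERT2/+ and Dio2Fl/Fl. All 6 were thus floxed at Dio2 and all received tamoxifen, and the methods give an age of 3 to 4 months for the mice used for sorting. The CreERT2 recombinase is made in Pax7-expressing cells and acts once tamoxifen is given. Carrying Cre and losing Dio2 went together, and their effects cannot be told apart.

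The TCA cycle oxidizes acetyl-CoA to carbon dioxide in the mitochondrial matrix and passes electrons to the respiratory chain, while its intermediates also feed amino acid and lipid synthesis. Pyruvate from glycolysis enters the matrix through a carrier and is turned into acetyl-CoA by the PDH complex, which kinases switch off by phosphorylation and phosphatases switch on again. Resting muscle stem cells hold few mitochondria, and their metabolism shifts as they leave quiescence.

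Of the 32 genes, 31 passed the minimum of a mean DESeq2-normalized count above 10 and were tested among 11633 genes with edgeR's quasi-likelihood test. At an unadjusted p under 0.05, 6 rose in cD2KO and 0 fell, while across all genes tested 5.34% were higher and 6.62% lower. The 6 were Pdk2, Sdhc, Mdh1, Dlat, Idh2 and Ogdh, which is 19.35% of the members tested. None passed a Benjamini-Hochberg adjusted p under 0.1 over all genes, the adjusted p of the 6 lying between 0.206 and 0.384 in edgeR. DESeq2 likewise gave 0 members at that line and 6 at an unadjusted p under 0.05, while edgeR gave 1 (Pdk2, adjusted p = 0.00765) when genes with low counts were kept and 4 (Pdk2, Ogdh, Mdh1 and Sdhc) without fl125. The calls were spread over the pathway, with 1 in each of 6 steps and 0 in pyruvate entry. The members' median log2 fold change was 0.13 against -0.02 over all genes, with 20 of 31 members above 0 (64.5%) where 48.1% of all genes were.

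**Figure D1:**
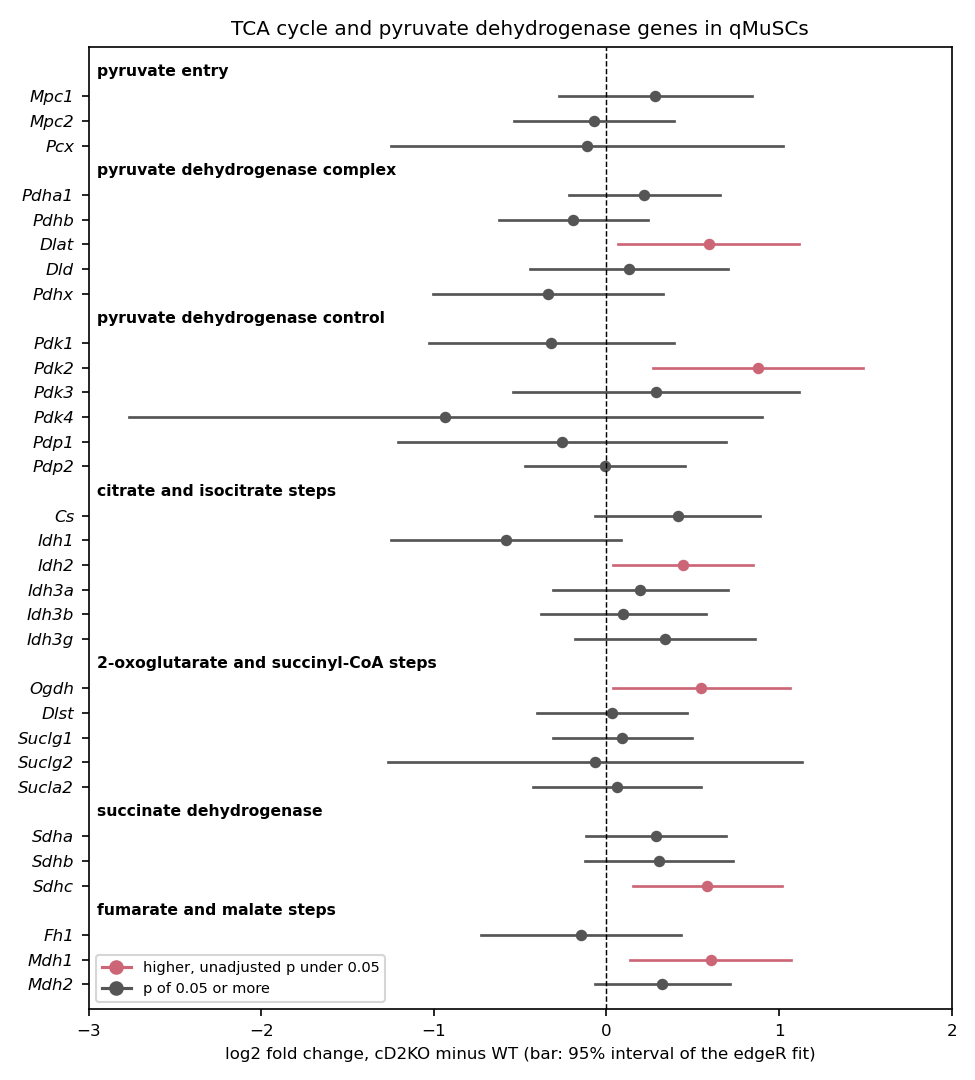
Log2 fold change (cD2KO minus WT, horizontal axis) of the 31 members tested, grouped by step, with 95% intervals of the edgeR fit on 3 mice per group. Red points mark the 6 members with an unadjusted p under 0.05, which lie between 0.44 and 0.88, and the grey points lie between -0.93 and 0.41.

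The targeted gene did not separate the groups. Dio2 had 21, 5 and 10 counts in c124, c129 and c130 and 15, 5 and 1 counts in fl125, fl126 and fl128. The library labelled fl125 therefore had the second highest count of the 6 and, at 6.83 CPM, the highest level, and every direction below rests on the labels. Which part of Dio2 was deleted and which part was read are not given in the sources used here, so these counts may not check the deletion. Total counts ranged from 2184073 (fl125) to 3897787 (c124), so that 3 counts stand for 0.773 to 1.37 CPM, the counts scaled to a library of 1000000. Pax7, which defines muscle stem cells, was read in all 6 libraries, at 213 to 434 CPM in WT and 316 to 691 CPM in cD2KO.

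Markers of other cells were read in these sorted samples as well. Summed over 12 immune markers the level was 4071, 7463 and 5002 CPM in WT and 209, 2266 and 2727 CPM in cD2KO, with no overlap. Over 12 mural (smooth muscle and pericyte) markers it was 11815, 7166 and 9219 CPM in WT and 14968, 15642 and 21841 CPM in cD2KO, again with no overlap. Over 15 muscle fiber markers it was 4721, 6385 and 3095 CPM in WT and 5273, 6056 and 9846 CPM in cD2KO, where the groups overlapped. In every library the mural and the muscle fiber sums were above the sum of 10 stem cell markers. That sum was 1581 to 2054 CPM in WT and 1728 to 2930 CPM in cD2KO. Sums over unlike lists do not give shares of cells, and the cell type behind the members' differences was not tested. None of these lists had a defining marker at 0 in all libraries. In bulk samples, fewer cells of a type and less RNA per cell cannot be told apart.

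At pyruvate entry no member was called. Mpc1 and Mpc2 encode the subunits of the mitochondrial pyruvate carrier, and Pcx encodes pyruvate carboxylase, which makes oxaloacetate from pyruvate. Their log2 fold changes were 0.28, -0.07 and -0.11, with unadjusted p of 0.296, 0.746 and 0.835 in edgeR. Mpc1 was lowest in fl125 (41.9 CPM) and highest in fl128 (87.8 CPM), so both extremes lay among cD2KO mice. Pcx was low throughout, at 4.46 to 7.98 CPM. Mpc1 shares 480 exonic bases with 4930506C21Rik on the other strand and has a processed pseudogene copy, and since strand use in counting is not given in the sources used here, its counts are uncertain.

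In the PDH complex 1 of 5 genes rose. Dlat, which encodes the E2 core that transfers the acetyl group to coenzyme A, had 35.0, 30.1 and 48.4 CPM in the WT mice and 63.8, 51.2 and 56.2 CPM in fl125, fl126 and fl128. All 3 cD2KO values lay above all 3 WT values, with c130 close below fl126. The mean went from 37.8 ± 9.47 to 57.1 ± 6.30 CPM (SD, n = 3 mice each), which gave a log2 fold change of 0.59 ± 0.24 (SE, edgeR unadjusted p = 0.0299, adjusted p = 0.366). Dlat lies on chromosome 9 (50634633 to 50659780, minus strand, mm10).

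The other subunits of the complex were not called. Log2 fold changes were 0.22 for Pdha1 and -0.19 for Pdhb, the subunits of the E1 decarboxylase, 0.13 for Dld, the E3 dehydrogenase shared with the 2-oxoglutarate dehydrogenase complex, and -0.34 for Pdhx, which anchors E3 to the core. Pdhb stood at 76.7 ± 6.53 in WT and at 67.3 ± 8.89 CPM in cD2KO, with Pdhx at 24.4 ± 6.44 and 19.4 ± 2.95 CPM (SD, n = 3 each). Dlat and Pdhb, partners in 1 complex, thus had point estimates of opposite sign. Pdha1 shares 603 exonic bases with Map3k15 on the opposite strand and Pdhb has a processed pseudogene (Gm6123) identical to it at 97% or more over 1079 bases, so the counts of both are uncertain.

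Among the regulators of PDH, the kinase Pdk2 carried the largest increase of any member. Pdk2 phosphorylates and inactivates the E1 subunit. It stood at 55.6, 64.2 and 38.6 CPM in c124, c129 and c130 and at 58.7, 106 and 126 CPM in fl125, fl126 and fl128. The groups overlapped, because fl125 lay between WT mice, while fl126 and fl128 lay well above all of them. The mean went from 52.8 ± 13.0 to 96.8 ± 34.5 CPM (SD, n = 3 mice each), which gave a log2 fold change of 0.88 ± 0.28 (SE, edgeR unadjusted p = 0.00803, adjusted p = 0.206).

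Pdk2 was also the member whose call held in all 6 fits that left out 1 mouse. Its log2 fold change then ran from 0.64 without fl128 to 1.17 without fl125, with adjusted p between 0.0195 and 0.532 in edgeR. The gene lies on chromosome 11 (95026258 to 95041354, minus strand, mm10) and overlaps Gm11513 on the opposite strand without sharing exonic bases. Pdk2 had 2 promoter windows, of which 1 held a match to the CCAAT box. That window is printed because Pdk2 was the member called in each of these fits. It comes from RefSeq (GRCm38.p6, chr11:95041322-95041621, minus strand, written 5′ to 3′ along the gene) and spans 250 bases before to 50 after the transcription start, and the capitals mark 3 matches to the CCAAT box, all on the opposite strand as ATTGG.
Pdk2: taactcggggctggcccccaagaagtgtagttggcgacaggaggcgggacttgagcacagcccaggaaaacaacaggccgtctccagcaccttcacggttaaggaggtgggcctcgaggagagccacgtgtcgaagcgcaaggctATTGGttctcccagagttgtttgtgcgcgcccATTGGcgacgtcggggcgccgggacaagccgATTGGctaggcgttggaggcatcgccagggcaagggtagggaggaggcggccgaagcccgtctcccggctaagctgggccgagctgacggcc

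The other kinases were not called. Pdk1 had 17.8, 19.7 and 19.5 CPM in WT and 16.4, 18.6 and 10.7 CPM in cD2KO, with fl128, the highest mouse for Pdk2, the lowest for Pdk1. Pdk3 had 18.8, 11.5 and 7.66 CPM in WT and 14.1, 15.8 and 16.7 CPM in cD2KO. Pdk4, the kinase usually raised by fasting and fatty acids, had 7.73, 5.94 and 0.696 CPM in WT and 4.55, 0.688 and 2.53 CPM in cD2KO, so that the groups overlapped and c130 and fl126 were below the level of 3 counts. Log2 fold changes were -0.32 for Pdk1, 0.29 for Pdk3 and -0.93 ± 0.86 (SE) for Pdk4, whose unadjusted p was 0.293 in edgeR.

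Per kilobase of annotated exon, Pdk2 was the highest of the 4 kinases in both groups, at a mean of 16.7 CPM per kb in WT and 30.6 CPM per kb in cD2KO. Pdk3 followed at 4.94 and 6.08, Pdk1 at 2.44 and 1.96 and Pdk4 at 1.36 and 0.738 CPM per kb. Whether reads covered whole transcripts is not given in the sources used here, and this order assumes that they did. The phosphatases that reactivate PDH were not called, Pdp1 with a log2 fold change of -0.26 and Pdp2 of -0.01, with unadjusted p of 0.569 and 0.966 in edgeR. Pdp2 was nearly level across mice, at 43.3 to 52.3 CPM.

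**Figure D2:**
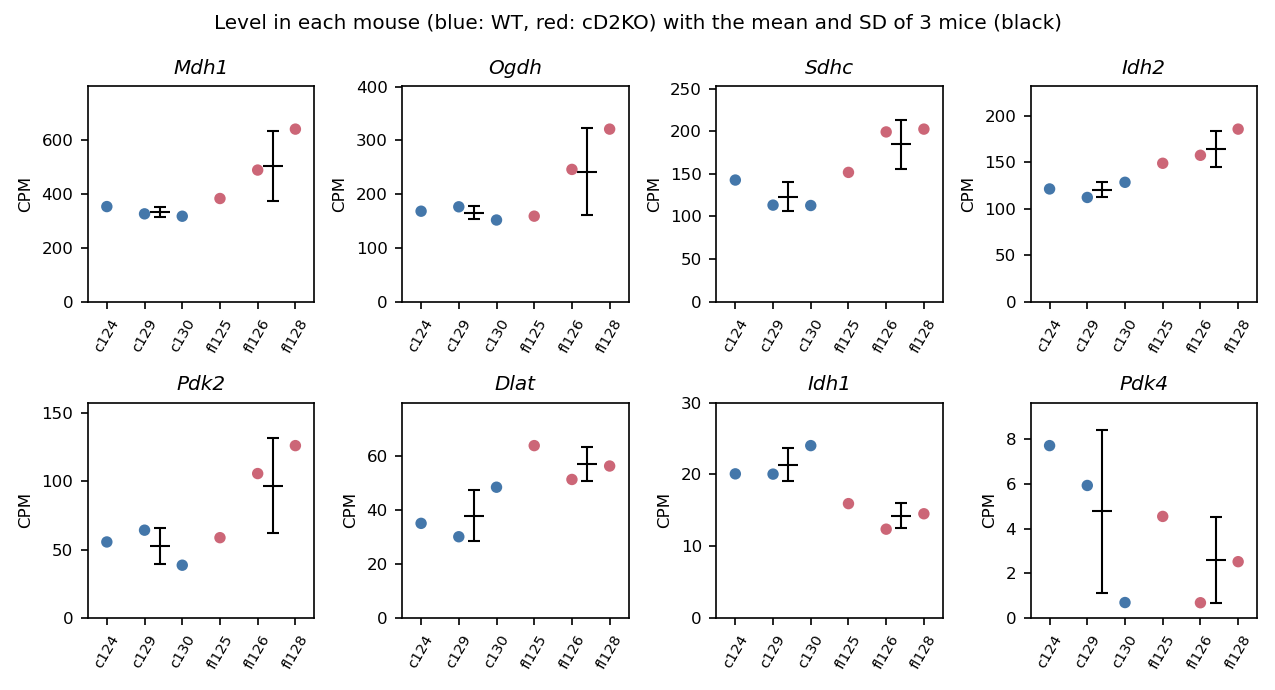
Level (CPM, linear axes from 0) of the 6 members called and of Idh1 and Pdk4 in each of the 6 mice, with the mean and SD of 3 mice per group. Mdh1, Sdhc, Idh2 and Dlat are above all WT mice in all 3 cD2KO mice and Idh1 is below, while fl125 lies within the WT range for Pdk2 and Ogdh.

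At the citrate and isocitrate steps 1 of 6 genes rose. Idh2, the mitochondrial NADP+-dependent isocitrate dehydrogenase, had 121, 112 and 128 CPM in the WT mice and 149, 158 and 186 CPM in fl125, fl126 and fl128. All cD2KO values were above all WT values. The mean went from 121 ± 8.18 to 164 ± 19.2 CPM (SD, n = 3 mice each), which gave a log2 fold change of 0.44 ± 0.19 (SE, edgeR unadjusted p = 0.0336, adjusted p = 0.377). Idh2 lies on chromosome 7 (80094846 to 80115392, minus strand, mm10), where Gm45203 overlaps it on the same strand.

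The cytosolic counterpart Idh1, which makes NADPH outside mitochondria, had the opposite order. It stood at 20.1, 20.05 and 24.02 CPM in WT and at 15.9, 12.4 and 14.5 CPM in cD2KO, so that all 3 cD2KO values lay below all 3 WT values. Its log2 fold change was -0.58 ± 0.31 (SE), which did not pass the threshold (edgeR unadjusted p = 0.0808, adjusted p = 0.494). Idh1 was the only member with all cD2KO mice below all WT mice, a pattern that 10.04% of all genes tested showed.

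Cs, citrate synthase, which opens the cycle, had 78.8, 97.6 and 57.1 CPM in WT and 100.2, 95.6 and 115 CPM in cD2KO. The groups overlapped and the log2 fold change of 0.41 ± 0.22 (SE) was not called (edgeR unadjusted p = 0.0857). The subunits of the NAD+-dependent isocitrate dehydrogenase, the enzyme of the cycle itself, were not called either, with log2 fold changes of 0.20 for Idh3a, 0.10 for Idh3b and 0.34 for Idh3g. Idh3b and Idh3g each had their lowest value in fl125, at 120 and 185 CPM, and Idh3g its highest in fl128 at 381 CPM.

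At the 2-oxoglutarate and succinyl-CoA steps 1 of 5 genes rose. Ogdh, the E1 subunit of the 2-oxoglutarate dehydrogenase complex, which is held to limit the rate of the cycle, had 168, 176 and 152 CPM in c124, c129 and c130 and 159, 246 and 321 CPM in fl125, fl126 and fl128. The groups overlapped because fl125 lay within the WT range, and fl126 and fl128 lay above it. The mean went from 165 ± 12.5 to 242 ± 81.0 CPM (SD, n = 3 mice each), which gave a log2 fold change of 0.55 ± 0.24 (SE, edgeR unadjusted p = 0.0373, adjusted p = 0.384). Without fl128 the log2 fold change was 0.29, and without fl125 it was 0.82.

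Ogdh lies on chromosome 11 (6291633 to 6356642, plus strand, mm10). A promoter window of it is printed because of the 5 called members with a window, all but Sdhc, it alone held a match to AGGTCA, the hexamer that nuclear receptors, thyroid hormone receptors among them, are known to bind. Ogdh had 6 windows, 1 of them with the match, where Pdk2 had 2 and Dlat, Idh2 and Mdh1 had 1 each. Of all genes, 18.1% held the hexamer. The printed window comes from RefSeq (GRCm38.p6, chr11:6291920-6292219, plus strand, 250 bases before to 50 after the start), and the capitals mark 1 match, on the opposite strand as TGACCT.
Ogdh: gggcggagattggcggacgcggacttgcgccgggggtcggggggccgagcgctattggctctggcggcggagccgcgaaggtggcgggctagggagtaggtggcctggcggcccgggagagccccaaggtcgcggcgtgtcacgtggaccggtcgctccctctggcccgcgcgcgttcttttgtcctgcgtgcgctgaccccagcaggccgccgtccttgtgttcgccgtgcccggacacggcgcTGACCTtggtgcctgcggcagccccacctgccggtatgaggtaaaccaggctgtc

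The other 4 genes of these steps stayed close to 0. Dlst, the E2 subunit of the same complex, had a log2 fold change of 0.03 with levels of 113 ± 17.5 (WT) and 116 ± 16.0 CPM (cD2KO, SD, n = 3 each). Suclg1, the subunit common to both succinyl-CoA ligases, had 0.09, Sucla2, which makes the ATP-forming enzyme, 0.06, and Suclg2, which makes the GTP-forming enzyme, -0.06. Suclg2 was low, at 2.97 to 11.8 CPM with both extremes in WT mice, and a processed pseudogene (Gm15163) matches it over 1302 bases, so its counts are uncertain.

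Succinate dehydrogenase, which is also complex II of the respiratory chain, was the step where all genes tested had every cD2KO mouse above every WT mouse. This held for 3 of 3 genes here and for 7 of the 31 members (22.6%), while 8.05% of all genes tested showed it. Sdhc, a membrane anchor, had 143, 113 and 113 CPM in WT and 152, 199 and 202 CPM in fl125, fl126 and fl128. Its mean went from 123 ± 17.1 to 184 ± 28.4 CPM (SD, n = 3 mice each), which gave a log2 fold change of 0.59 ± 0.20 (SE, edgeR unadjusted p = 0.0117, adjusted p = 0.248). Sdhc lies on chromosome 1 (171127165 to 171150603, minus strand, mm10).

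The catalytic subunits Sdha and Sdhb differed by less. Sdha, the flavoprotein, had 228, 176 and 192 CPM in WT and 249.6, 234 and 244 CPM in cD2KO, a log2 fold change of 0.29 (edgeR unadjusted p = 0.148). Sdhb, the iron-sulfur subunit, had 289.9, 228 and 279.8 CPM in WT and 290.6, 307 and 388 CPM in cD2KO, a log2 fold change of 0.30 (edgeR unadjusted p = 0.152). For Sdhb c124 and fl125 were almost equal, and with upper quartile normalization the groups overlapped. Sdhd, the second anchor, had 28, 5 and 1 counts in WT and 11, 3 and 2 counts in cD2KO, and was not tested. These counts are far below those of its partners, and no annotated near-identical copy of Sdhd was found.

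At the fumarate and malate steps 1 of 3 genes rose. Mdh1, the cytosolic malate dehydrogenase of the malate-aspartate shuttle, had 352, 325 and 316 CPM in the WT mice and 382, 487 and 639 CPM in fl125, fl126 and fl128. All cD2KO values were above all WT values and fl128 was the highest. The mean went from 331 ± 18.6 to 502 ± 129.2 CPM (SD, n = 3 mice each), which gave a log2 fold change of 0.60 ± 0.22 (SE, edgeR unadjusted p = 0.0149, adjusted p = 0.274). Mdh1 lies on chromosome 11 (21556787 to 21572367, minus strand, mm10) and shares 52 exonic bases with other genes, Wdpcp overlapping it on the opposite strand.

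Mdh2, the mitochondrial malate dehydrogenase that closes the cycle, had 296, 265 and 286 CPM in WT and 364, 349.8 and 348 CPM in cD2KO. The groups did not overlap, and the spread within cD2KO was the smaller of the pair's, with 354 ± 8.58 CPM for Mdh2 against 502 ± 129.2 CPM for Mdh1 (SD, n = 3 each). Its log2 fold change of 0.32 ± 0.18 (SE) was not called (edgeR unadjusted p = 0.0969, adjusted p = 0.516). Fh1, fumarase, had levels of 48.5 ± 17.0 (WT) and 43.8 ± 2.53 CPM (cD2KO, SD, n = 3 each), which gave a log2 fold change of -0.15.

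By mouse, the members were highest in fl128 and did not separate the groups as a whole. The mean log2 CPM of the 31 members was 6.04, 5.89 and 5.79 in c124, c129 and c130 and 5.87, 6.03 and 6.20 in fl125, fl126 and fl128. Of the 31, 15 had their highest value of the 6 mice in fl128, 3 in fl126, 3 in fl125, 6 in c124 and 2 each in c129 and c130. The lowest value fell in c129 for 9 members, in c130 for 9, in fl125 for 8, in fl126 for 4 and in fl128 for 1. The listed genes took 0.324%, 0.316% and 0.299% of all counts in WT and 0.319%, 0.373% and 0.412% in cD2KO. The library fl125 thus lay within the WT range on this measure, and fl126 and fl128 above it.

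**Figure D3:**
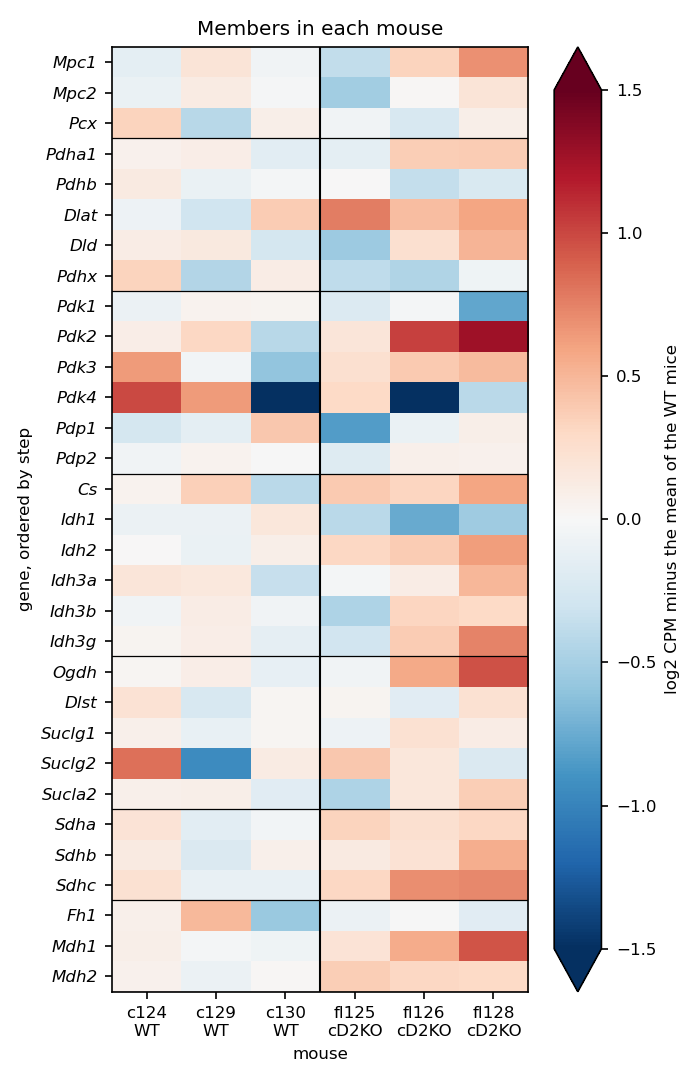
Each of the 31 members tested (rows, ordered by step) in each of the 6 mice (columns), as log2 CPM minus the mean of the 3 WT mice, with colours limited at -1.5 and 1.5. Red is dominant in fl126 and fl128, whose median deviations are 0.23 and 0.31, while fl125 holds red and blue rows and has a median of -0.05.

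The count of members called depended on which mice were fitted. Without fl125, 9 members were called higher and 18 had both remaining cD2KO mice above all WT mice, and the median log2 fold change was 0.34. Over all genes tested in that fit 7.93% were higher and 17.3% had both cD2KO mice above the WT mice. Without fl128, 2 were called (Pdk2 and Sdhc) with a median of 0.03, and without c130 also 2 (Dlat and Pdk2) with a median of 0.04. Without c124, 3 were called (Pdk2, Sdhc and Mdh1), and without fl126 also 3 (Dlat, Pdk2 and Mdh1). Without c129, 5 were called (Pdk2, Ogdh, Sdhc, Mdh1 and Cs, the last not called with all mice). The share of all genes called higher was 3.46% without fl128, 3.92% without c130, 5.18% without c124, 4.09% without fl126 and 4.33% without c129. Members called lower numbered 0 in each of these fits. With scaling to the total count alone, 3 members were called (Pdk2, Sdhc and Mdh1), and the share of all genes called higher was 3.77%, beside 5.34% in the main fit.

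Each called member kept a log2 fold change above 0 in all 6 fits that left out 1 mouse. Sdhc ran from 0.51 to 0.74 and was called in 4 of the 6 fits. Mdh1 ran from 0.39 to 0.81 and was called in 4. Dlat, at 0.48 to 0.80, and Ogdh, at 0.29 to 0.82, were called in 2 each. Idh2, at 0.34 to 0.55, was called in 1, the fit without fl125.

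**Figure D4:**
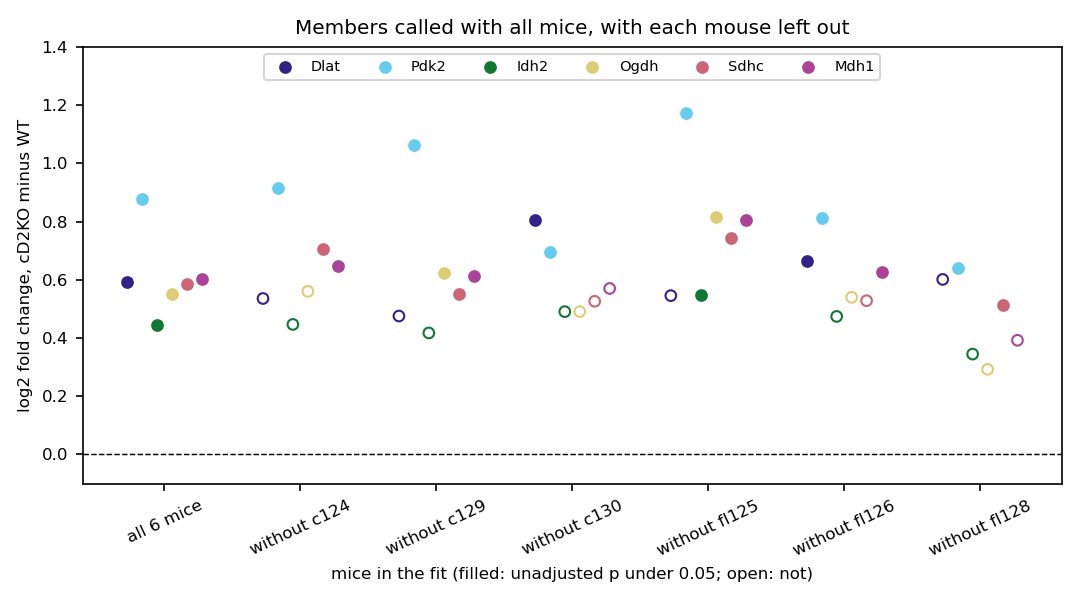
Log2 fold change (cD2KO minus WT, vertical axis) of the 6 called members with all 6 mice and with each mouse left out, filled where the unadjusted edgeR p was under 0.05. Pdk2 is filled in all 7 fits, and the points of Ogdh and Mdh1 are lowest without fl128, at 0.29 and 0.39.

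Within a library, the ratio of partner genes does not depend on how libraries are scaled, apart from the small prior count. The log2 ratios of 6 pairs, chosen after their values were seen, are given as a description. An exact permutation test over these mice cannot give a p below 0.1 and so could not decide them. The log2 ratio of Idh2 to Idh1 was 2.55, 2.44 and 2.39 in WT and 3.17, 3.60 and 3.62 in cD2KO, with no overlap, a difference of 1.0. The ratio of Pdk2 to Pdk1 differed by 1.16, of Dlat to Pdhb by 0.80 and of Sdhc to Sdhb by 0.28, each also without overlap between the groups. The gap was narrow for Pdk2 to Pdk1, with 1.67 in c129 and 1.80 in fl125. It was narrow too for Sdhc to Sdhb, with -1.01 in c129 and -0.936 in fl128.

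The remaining pairs overlapped between the groups. The log2 ratio of Ogdh to Dlst differed by 0.46 and that of Mdh1 to Mdh2 by 0.25. For Mdh1 to Mdh2 it was 0.07 in fl125, below all WT mice, and 0.87 in fl128, above them.

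The mouse order of the called members was set beside the marker lists. The mean log2 CPM of the 6 called members was 6.82, 6.74 and 6.72 in c124, c129 and c130 and 7.05, 7.38 and 7.61 in fl125, fl126 and fl128, a separation that the choice of called members itself favours. Among the cD2KO mice the summed mural, muscle fiber, immune, endothelial and fibroadipogenic progenitor markers were all likewise lowest in fl125 and highest in fl128, and the summed stem cell markers ran the other way. Single markers did not all follow these sums. From fl125 through fl126 to fl128, the mural markers Rgs5, Pdgfrb, Kcnj8 and Abcc9 decreased and Acta2, Myh11, Cnn1 and Des increased. Tagln, Mylk, Cspg4 and Higd1b did neither. The muscle fiber markers Ttn, Myh4 and Ryr1 were lowest in fl128. Of the 12 mural markers 6 rose (Acta2, Myh11, Tagln, Cnn1, Mylk and Des), 0 fell and the list's median log2 fold change was 0.65. The 6 are genes of the contractile apparatus and cytoskeleton, while none of the other 6 was called. Log2 fold changes of those were 0.003 for Rgs5, -0.06 for Pdgfrb, -0.36 for Kcnj8, -0.23 for Abcc9, 0.25 for Cspg4 and 0.34 for Higd1b. Of the 15 muscle fiber markers 2 rose (Myh2 and Myl1), 15 had a log2 fold change above 0 and the median was 0.54. Of the 12 immune markers 4 fell, 0 rose and the median was -1.86. Their part in the members' differences was not tested.

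**Figure D5:**
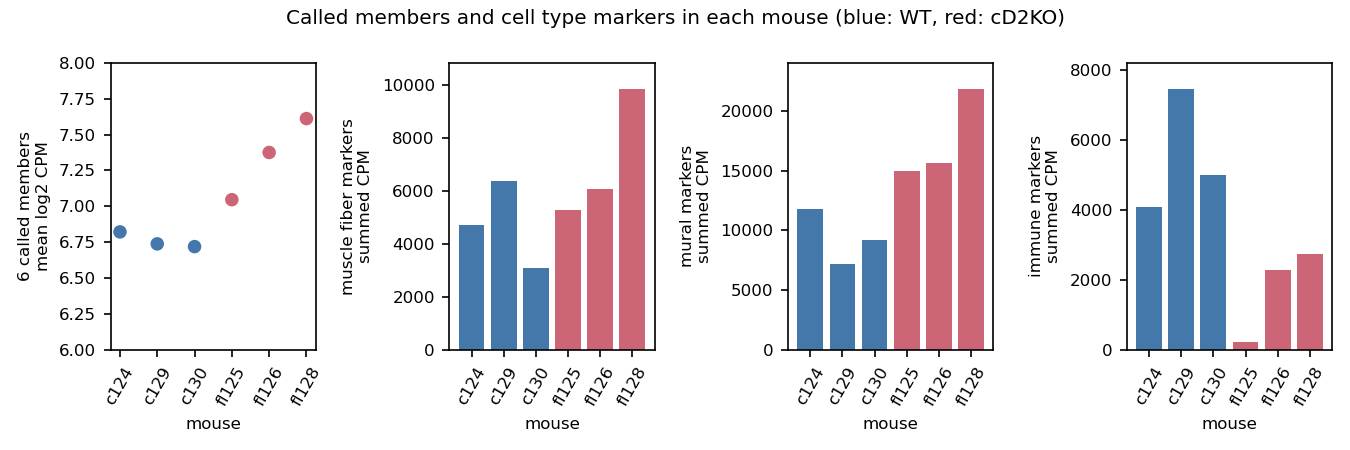
Mean log2 CPM of the 6 called members (left, axis from 6 to 8) and summed CPM of muscle fiber, mural and immune markers (bars from 0) in each mouse. In cD2KO the called members go from 7.05 in fl125 to 7.61 in fl128, the mural sum from 14968 to 21841 CPM and the muscle fiber sum from 5273 to 9846 CPM, and the immune sum is lowest in fl125 at 209 CPM.

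For the stem cells and the remaining cell types the counts were as follows. Of 10 stem cell markers 2 rose (Myf5 and Itga7), and 6 had a log2 fold change above 0 and 4 below. The summed level of the 10, at 1990, 1581 and 2054 CPM in WT and 2930, 2150 and 1728 CPM in cD2KO, was highest in fl125 and overlapped between the groups. The markers did not all follow this sum. From fl125 through fl126 to fl128, Chodl, Pax7, Myf5, Chrdl2 and Sdc4 decreased, Itga7 and Spry1 increased, and Cd34, Calcr and Vcam1 did neither. Of 9 endothelial markers tested 5 fell, and of 8 fibroadipogenic progenitor markers 2 fell, while 6.62% of all genes tested were lower. The median log2 fold changes of these lists were -1.24 and -0.57. In WT (c124, c129 and c130) the endothelial sum was 267, 323 and 391 CPM. The fibroadipogenic sum was 3868, 6309.5 and 5416 CPM there, and both sums overlapped between the groups. In cD2KO the endothelial sum was 230, 261 and 289 CPM and the fibroadipogenic sum 2372, 3914 and 5132 CPM in fl125, fl126 and fl128. Their part in the members' differences was not tested.

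Of 29 further genes that feed, drain or assemble the same pathway, 25 were tested, 2 rose and 0 fell, with a median log2 fold change of 0.13. The 8% called higher lies near the 5.34% of all genes. Without c124, c130 or fl126 1 of them was called higher, and without fl125 3 were called higher and 1 lower. Got2, the mitochondrial aspartate aminotransferase of the malate-aspartate shuttle, had 173, 119 and 165 CPM in WT and 235, 224 and 283 CPM in cD2KO, with no overlap. Its log2 fold change was 0.70 ± 0.21 (SE, edgeR unadjusted p = 0.00459, adjusted p = 0.169). Pck2, the mitochondrial phosphoenolpyruvate carboxykinase, had 52.8, 61.6 and 53.6 CPM in WT and 60.1, 94.6 and 85.3 CPM in cD2KO, with fl125 within the WT range, and a log2 fold change of 0.52 (edgeR unadjusted p = 0.0343, adjusted p = 0.378).

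Among 12 transcription factors and coactivators known to act on mitochondrial genes or PDH kinases, 1 rose and 0 fell, a share of 8.33% beside 5.34% of all genes. Hif1a, the hypoxia-regulated factor, had 58.7, 47.5 and 61.3 CPM in WT and 63.8, 88.0 and 93.5 CPM in cD2KO, all above WT, with a log2 fold change of 0.55 (edgeR unadjusted p = 0.0247, adjusted p = 0.346). Ppargc1a, a coactivator of mitochondrial biogenesis, had 12.6, 14.5 and 5.22 CPM in WT and 8.20, 12.0 and 9.16 CPM in cD2KO, and its log2 fold change was -0.13 (edgeR unadjusted p = 0.773).

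Genes of adjoining pathways were called as well, to be read against the 5.34% of all genes higher and 48.1% above 0. Of 36 nuclear genes of respiratory complex I, 4 rose (11.1%), 0 fell, 34 had a log2 fold change above 0 and the median was 0.22. Of 16 glycolysis genes tested, 3 rose (Pfkl, Pfkm and Aldoa, 18.8%), 1 fell (Hk2) and the median was 0.32. Whether the TCA cycle and PDH genes differed from these lists was not tested.

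Promoter windows were available from RefSeq for 29 of the 32 members, and a motif match in them is a description only. AGGTCA, searched on both strands, was in a window of 8 of the 29 (Mpc1, Pcx, Idh3g, Ogdh, Sucla2, Sdhb, Sdhd and Fh1), while 18.1% of all genes and 16.3% of all 32851 windows held it. No window was given for Sdhc, a called member, nor for Pdp1 and Idh3a. Of the 8, Ogdh was the only one called, with the match in 1 of its 6 windows. CCGGAAG, the motif of the factor GABP, was in 6 of the 29 members, none of them called, against 9.93% of all genes. The CCAAT box was in 20 of the 29, Pdk2, Idh2, Ogdh and Mdh1 among them, against 41.1% of all genes.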

How the data were processed

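RNA of skeletal muscle stem cells from 6 mice was sequenced, 1 library per mouse. The deposited values were raw read counts per Ensembl gene, which the authors made by alignment to mm10. The submitters' processing notes name bcl2fastq, STAR 2.6.0a and HTSeq 0.9.1. The annotation, strand setting and treatment of duplicates are not given in the sources used here. All 6 count columns matched a mouse by name, and 0 columns were left unmapped.

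Of 31053 identifiers 30934 were matched to symbols with GENCODE M21, whose gene positions (mm10) are given. Where a symbol had 2 identifiers, the one with the larger total count was used. Genes with a mean DESeq2-normalized count above 10 were tested in R 4.3.3 with edgeR 4.0.16 (TMM normalization, robust quasi-likelihood F-test, no covariate) on all 6 libraries, with Benjamini-Hochberg adjustment over 11633 genes. CPM were TMM-scaled, and log2 CPM used a prior count of 2. As the study drew its line at an unadjusted p of 0.05, so do the calls here. The p-values set the difference between groups against the spread between mice, which edgeR estimates for each gene with information from all genes tested. The script was tested on simulated data.

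The members and lists were chosen with earlier results of these data known. All members are named. Values in each mouse are given for members called, for those whose groups did not overlap and for the PDH kinases, and other pathway genes and regulators are named where called, with Ppargc1a. 1 further gene that this rule named is not reported here. Marker genes and ratios were added to these. Near-identical copies were counted at 97% identity or more over at least 100 bases. Promoters came from RefSeq (GRCm38.p6). Alternatives were DESeq2 1.42.0, voom of limma 3.58.1, other normalizations and filters, non-robust estimation, an adjusted p under 0.1 and leaving out each mouse.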

Additional observations from a re-analysis of the deposited data

How the results depend on the processing

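Members called higher numbered 6 in the main fit and 3 with scaling to the total count alone. At an adjusted p under 0.1 in edgeR they numbered 0. When 1 mouse was left out they numbered 2 to 9, not all of them among the 6. With DESeq2, DESeq2 size factors in edgeR, upper quartile normalization, no minimum, filterByExpr and non-robust estimation they numbered 6, and with voom or a mean above 50 they numbered 5, Ogdh being lost. The share of all genes called higher was 3.77% with total count scaling. In the other alternatives run on all mice it went from 5.2% (non-robust estimation) to 6% (DESeq2 size factors in edgeR). The members called lower numbered 0 under every alternative run. Those whose cD2KO mice all lay above the WT mice numbered 7 to 18 with 1 mouse left out, and those below numbered 1 to 3. Over all genes tested in those fits, 11.7% (without fl126) to 17.3% (without fl125) lay all above, beside 8.05% with all mice. The share of all genes lying below was not computed for these fits. The members' median log2 fold change ran from 0.027 (without fl128) to 0.34 (without fl125) and was 0.06 with total count scaling, which moved the median of all genes from -0.02 to -0.09.

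No called member changed sign under any alternative run. Of the members not called, the log2 fold change changed sign for Pdp2 with DESeq2 (0.017), with DESeq2 size factors in edgeR (0.017) and with no minimum (0.025), for Dlst with total count scaling (-0.035) and with a mean above 50 (-0.0032), and for Sucla2 with total count scaling (-0.013). With 1 mouse left out it ran from -0.23 to 0.15 for Mpc2, -0.28 to 0.090 for Pcx, -0.10 to 0.41 for Dld, -0.47 to 0.014 for Pdp1, -0.053 to 0.11 for Pdp2, -0.028 to 0.35 for Idh3b, -0.076 to 0.14 for Dlst, -0.41 to 0.49 for Suclg2, -0.12 to 0.30 for Sucla2 and -0.38 to 0.14 for Fh1. The cause of these shifts was not tested. Pcx, Suclg2, Pdk4 and Sdhd were too shallow for small differences to be detectable.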
